A study of Mus musculus with 24 samples.

Results

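The genes described here are 10 components of Fat4-Dchs1 signalling and of the Hippo pathway's output in stromal cells of the embryonic mouse kidney: Fat4, Dchs1, Dchs2, Fjx1, Yap1, Wwtr1, Tead1, Ctgf, Cyr61 and Axl. They were chosen by name, and all 10 have a row among the 13803 genes of the deposited expression table. RNA was sequenced on an Illumina HiSeq instrument from cells that had been freed with collagenase and sorted for the FoxD1Cre-eGFP marker, which labels the Foxd1 lineage, the progenitors of renal stroma. The 24 libraries fall into 8 groups of 3. Cells deficient in beta-catenin (β-catSD, SD below) came from C57BL/6 mice at E12.5 and E13.5 (embryonic days), and wild-type C57BL/6 cells were collected at both stages. Cells with stabilised beta-catenin (β-catSO, SO below) came from CD1 mice at the same stages, with wild-type CD1 cells at both. The record describes the kidneys of every genotype, wild-type included, as FoxD1Cre-eGFP, so the driver is shared by all groups. The sources used here do not name the alleles that remove or stabilise beta-catenin, and strain goes with the line, so a difference between SD and SO cannot be told apart from one between their strains. The record speaks of 3 kidneys per genotype without tying a library to an animal or litter, and p-values therefore measure the spread between these libraries, which may be technical.

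Fat4 and Dchs1 are very large cadherins that bind each other across neighbouring cells. In the kidney, Fat4 made by the stroma is known to act with Dchs1 on adjacent nephron progenitors and to limit their expansion. Fjx1 encodes a Golgi kinase that phosphorylates cadherin domains of Fat and Dachsous proteins and so tunes their binding. The Hippo kinases keep the coactivators YAP (gene Yap1) and TAZ (gene Wwtr1) out of the nucleus. When these kinases are less active, YAP and TAZ enter the nucleus, bind TEAD factors such as Tead1 and raise targets that include Ctgf, Cyr61 and Axl. Much of this control acts on protein phosphorylation and location, which RNA levels do not measure.

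The promoters of 3 of these genes are shown because they hold the short core bound by TEAD factors (GGAATG, or CATTCC on the other strand) in a window that overlaps no annotated exon. Wwtr1 also holds the core bound by TCF/LEF factors (CTTTGA, or TCAAAG on the other strand), the DNA-binding partners of beta-catenin. Each line gives the 250 bases before the RefSeq start in build GRCm38.p6, read 5′ to 3′ on the gene's own strand, which is the minus strand for all 3. Capitals mark the cores. The windows are chr3:57575911-57576160 for Wwtr1, chr3:145649986-145650235 for Cyr61 (listed by RefSeq as Ccn1) and chr7:25788734-25788983 for Axl.
Wwtr1: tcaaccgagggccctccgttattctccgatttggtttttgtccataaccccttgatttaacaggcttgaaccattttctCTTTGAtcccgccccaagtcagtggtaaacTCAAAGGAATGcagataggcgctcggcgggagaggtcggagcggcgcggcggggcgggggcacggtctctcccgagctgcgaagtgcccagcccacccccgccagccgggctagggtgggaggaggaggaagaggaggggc
Cyr61: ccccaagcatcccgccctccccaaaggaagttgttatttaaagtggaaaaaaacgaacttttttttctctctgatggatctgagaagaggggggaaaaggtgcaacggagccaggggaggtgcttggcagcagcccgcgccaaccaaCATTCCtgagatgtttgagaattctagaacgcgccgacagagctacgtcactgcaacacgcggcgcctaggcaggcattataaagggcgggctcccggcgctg
Axl: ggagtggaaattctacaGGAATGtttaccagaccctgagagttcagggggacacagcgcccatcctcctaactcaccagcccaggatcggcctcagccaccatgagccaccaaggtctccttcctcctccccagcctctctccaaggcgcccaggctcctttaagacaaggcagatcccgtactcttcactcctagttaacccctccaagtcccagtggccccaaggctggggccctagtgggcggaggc

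In the Wwtr1 window the TCF/LEF core begins 171 and 141 bases before the start and the TEAD core 136 bases before it, and the second TCF/LEF core shares a G with the TEAD core. The TEAD core begins 103 bases before the start of Cyr61 and 233 bases before that of Axl. The RefSeq table held 6 of the 10 genes, with 7 windows because Wwtr1 has 2 starts. The TEAD core was found in 5 of the 7 windows, those of Yap1, Wwtr1 (both), Cyr61 and Axl, and the TCF/LEF core in 2, both of Wwtr1. The 2 Wwtr1 windows overlap and hold the same copies of both cores, so each copy is counted in both windows. The windows of Fat4 and Dchs2 held neither. Among all 32851 windows of this length, 12.6% held the TEAD core and 13.8% the TCF/LEF core on either strand. Such a match is a run of letters, not a measured binding site. Ctgf, Dchs1, Fjx1 and Tead1 had no entry.

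The deposited values are log2 CPM (counts scaled to a common sequencing depth, on a log scale). Libraries held between 6.18M and 21.2M reads in genes. All 10 stromal markers listed for the check of cell type were measured in every group, with summed levels of 8419 to 14010 CPM. Axin2, a direct transcriptional target of beta-catenin signalling, followed the labels, with a change of -1.02 ± 0.11 (SE) in SD and 3.60 ± 0.11 in SO over both stages on the log2 scale. Ctnnb1, the gene of beta-catenin, changed by -0.235 ± 0.046 in SD and -0.10 ± 0.046 in SO. At E13.5 alone its SD change was -0.164 (limma adjusted p = 0.205). Foxd1, the gene of the sorted lineage, changed by 0.049 ± 0.105 in SD. In SO it was 2.02-fold lower (-1.015 ± 0.105, limma adjusted p = 1.56e-07). Some libraries carried other RNA. Wild-type CD1 E13.5 replicate 1 had the highest endothelial sum of all 24 libraries (855.3 CPM, against 89.1 and 48.5 in the other two), the highest sum of ureteric bud markers (330 CPM) and the lowest stromal sum (8419 CPM). Alb, made by liver, stood at 10.44 log2 CPM in wild-type C57BL/6 E12.5 replicate 3 and at 8.18 in wild-type CD1 E13.5 replicate 3, with the next library at 5.77. The sum of 4 liver markers was 181.4 to 194.3 CPM in all 3 wild-type CD1 E12.5 libraries and 0 to 0.30 CPM in SO E12.5, so these groups differed as a whole. SD E13.5 replicate 3 had the highest sum of immediate early genes (584.8 CPM), transcripts that cells raise within minutes of stress or dissociation. Calls on the 10 genes that were gained or lost without such a library are given both ways. For genes of the other lists this was done only in part, and a value can move without its call changing.

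Levels of different genes were compared per kilobase of exon, as the mean over the 24 libraries on the log2 CPM per kilobase scale. Axl was highest at 5.82, followed by Dchs1 at 5.43, Yap1 at 5.32, Cyr61 at 4.98, Fat4 at 4.86 and Wwtr1 at 4.77. Tead1 (3.94), Fjx1 (3.61) and Ctgf (2.85) were lower, and Dchs2 was lowest at -2.37. The abundant members of each pair were therefore Dchs1 rather than Dchs2 among the Dachsous cadherins and Yap1 rather than Wwtr1 among the coactivators. Dchs2 rested on 3 to 52 reads per library and the other 9 genes on 93 to 11396. Across the 24 libraries Yap1 varied least, with a range of 0.38 log2 CPM between its lowest and highest library, and Dchs2 (3.95), Ctgf (2.52) and Cyr61 (2.27) varied most.

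**Figure D1:**
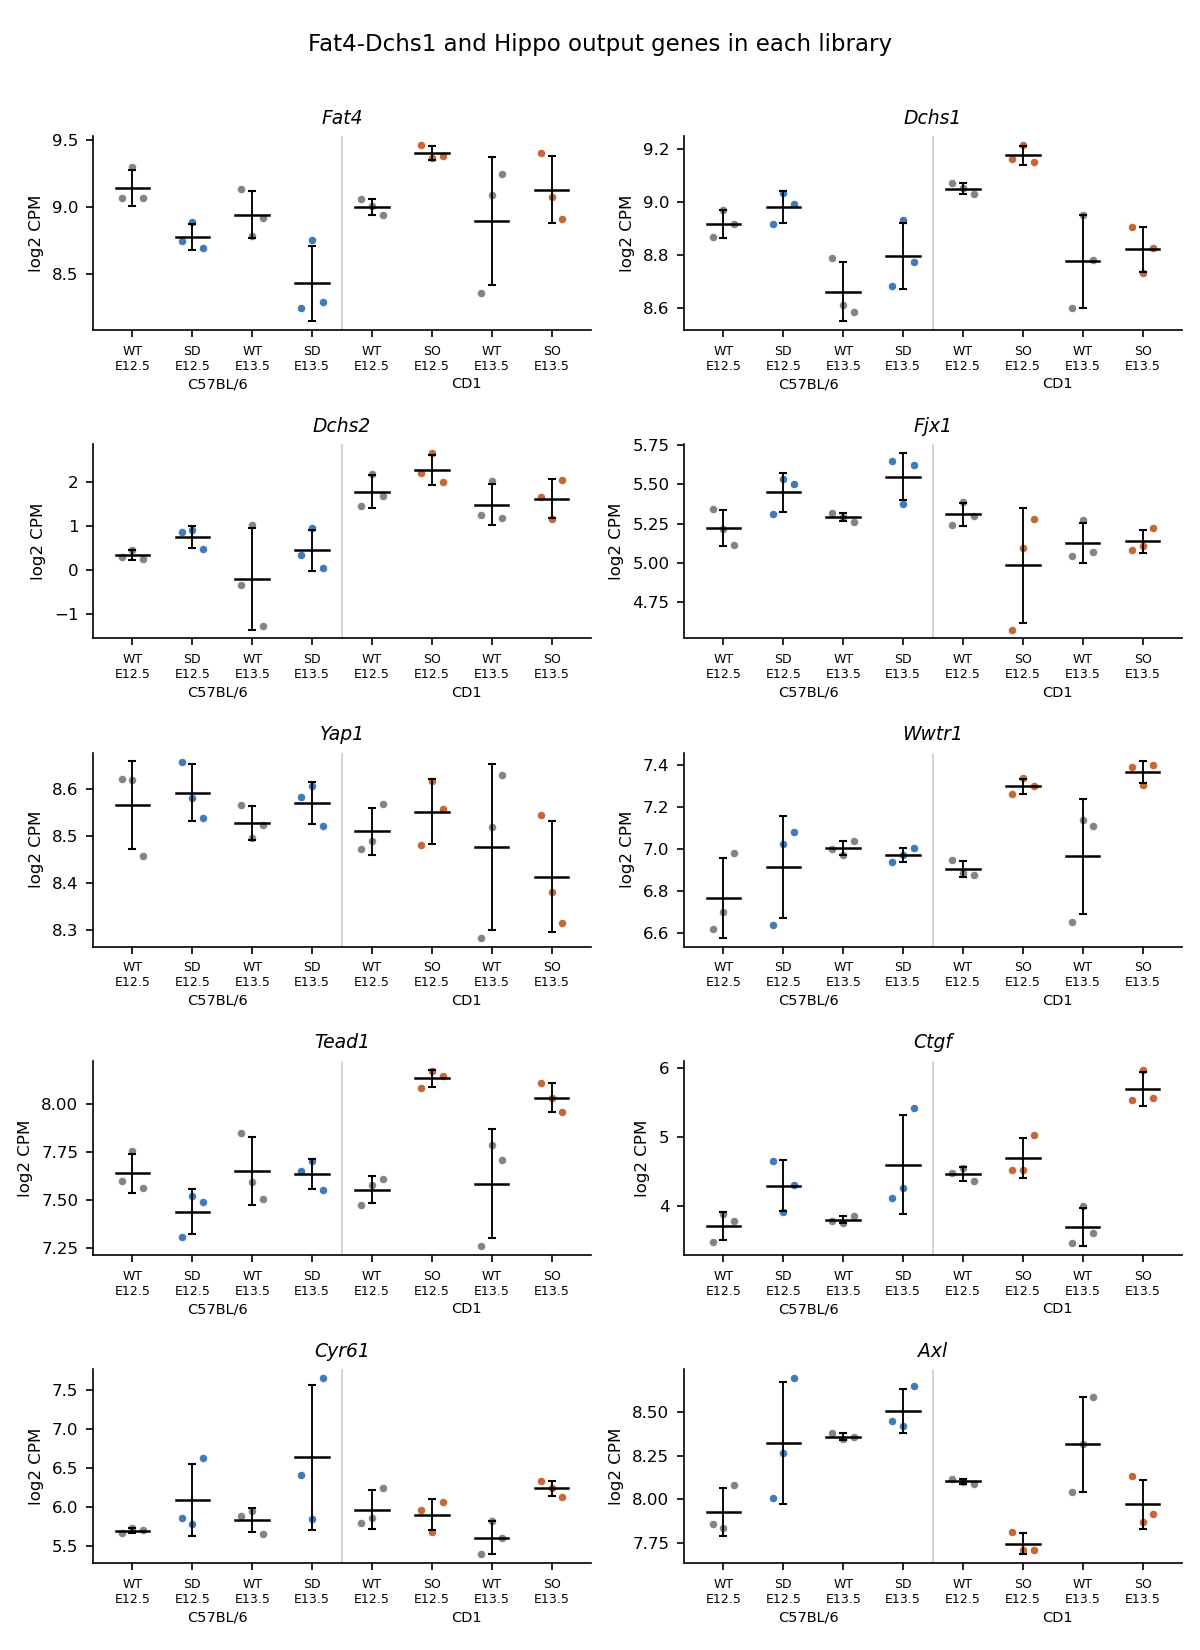
Each panel shows 1 gene in log2 CPM, with a point for each of 3 libraries per group in replicate order, a long bar for the group mean and whiskers for 1 SD; grey is wild-type, blue SD and orange SO, with C57BL/6 on the left and CD1 on the right of each panel. Fat4 sits low in SD, Wwtr1 and Tead1 sit high in SO, and Ctgf is highest in the 3 SO E13.5 libraries, between 5.54 and 5.98.

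Changes were tested with limma over all 13803 genes at once, and a gene is said to have risen or fallen where its Benjamini-Hochberg adjusted p was under 0.05. In SD, none of the 10 genes passed at E12.5 (0 of 10, against 1.72% of all genes) or at E13.5 (0 of 10, against 3.40%). At each stage 3 of the 10 had an unadjusted p under 0.05, as did 1917 of all 13803 genes at E12.5 and 2016 at E13.5. Over the mean of both stages, 2 of the 10 passed in SD, against 7.17% of all genes: Fat4 lower (3.71% of all genes) and Ctgf higher (3.46%). SO had 2 of 10 at E12.5 (8.16% of all genes), 3 of 10 at E13.5 (15.4%) and 4 of 10 over both stages (18.5%), namely Wwtr1, Tead1 and Ctgf higher (10.2% of all genes) and Axl lower (8.32%). The median change of the 10 genes over both stages was 0.17 in SD, where the median of all genes was 0.00, and 0.30 in SO, where that of all genes was -0.00. Groups of 3 libraries that did not overlap their wild-type were found at E12.5 for 5 of the 10 genes in SD (16.0% of all genes) and 5 in SO (31.1%), and at E13.5 for 4 in SD (21.2%) and 4 in SO (27.9%).

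**Figure D2:**
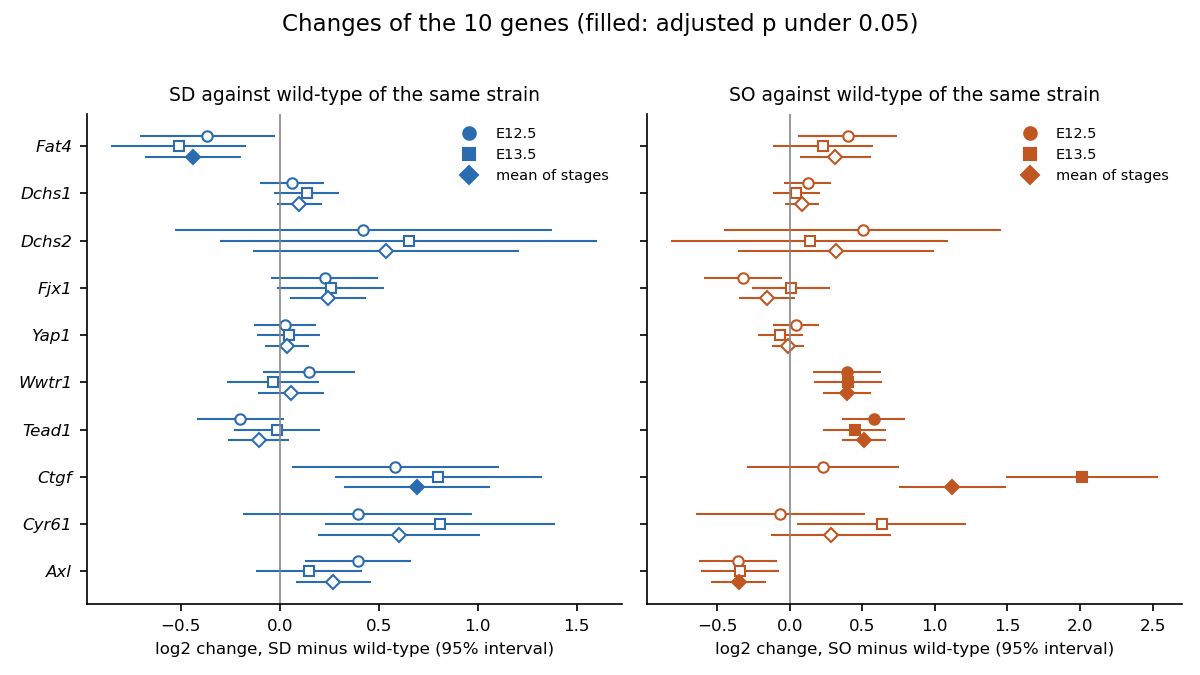
Log2 change of each gene against wild-type of the same strain (x axis, with 95% intervals), in SD on the left and SO on the right, for E12.5 (circles), E13.5 (squares) and the mean of both stages (diamonds); filled symbols have an adjusted p under 0.05. In SD only the diamonds of Fat4 and Ctgf are filled, and in SO Tead1 and Wwtr1 are filled at every row while Ctgf is filled at E13.5 and over both stages and Axl over both stages.

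Fat4, an atypical cadherin that binds Dchs1 (chromosome 3, 38886940 to 39011985, plus strand, GENCODE M21 on GRCm38), fell in SD, and the SD and SO changes differed. In wild-type C57BL/6 cells it measured 9.07, 9.29 and 9.06 log2 CPM at E12.5 and 9.13, 8.78 and 8.91 at E13.5. In SD it measured 8.74, 8.89 and 8.70 at E12.5 and 8.25, 8.75 and 8.29 at E13.5. Every SD library was below every wild-type C57BL/6 library of its stage, and the gap at E13.5 was narrow, 8.75 against 8.78. The change over both stages was -0.44 ± 0.12 (SE; 1.36-fold lower; limma adjusted p = 0.0216). At single stages it was -0.37 ± 0.17 at E12.5 (adjusted p = 0.318) and -0.51 ± 0.17 at E13.5 (adjusted p = 0.0978). The call over both stages was lost when 1 of 5 libraries was left out, the E12.5 libraries being SD replicate 3 and wild-type replicate 2 and the E13.5 libraries SD replicates 1 and 3 and wild-type replicate 1, with values from -0.52 to -0.39 and adjusted p up to 0.0679 over the 12 such fits. At E13.5 alone Fat4 passed without SD replicate 2 (-0.67, adjusted p = 0.0362).

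In CD1 wild-type cells Fat4 measured 9.06, 9.01 and 8.94 log2 CPM at E12.5 and 8.36, 9.09 and 9.25 at E13.5. The SO libraries measured 9.46, 9.36 and 9.38 at E12.5, all above wild-type, and 9.40, 9.07 and 8.91 at E13.5, where the groups overlapped. The change in SO over both stages was 0.31 ± 0.12, which did not pass (adjusted p = 0.0646). It passed without SO E13.5 replicate 3 (0.37, adjusted p = 0.0402), without wild-type E13.5 replicate 2 (0.36, adjusted p = 0.0448) or replicate 3 (0.40, adjusted p = 0.0154), and fell to 0.18 (adjusted p = 0.188) without wild-type E13.5 replicate 1, the library with high endothelial and low stromal markers. At E13.5 alone the sign depended on that library, 0.23 with it and -0.04 without it. The SD change minus the SO change, tested directly, was -0.75 ± 0.16 (adjusted p = 0.00219), and this difference kept its call in all 24 fits that left out a library (-0.84 to -0.62). Ordered by group mean, Fat4 ran from 9.40 in SO E12.5 to 8.43 in SD E13.5, and only the first step, to 9.14 in wild-type C57BL/6 E12.5, separated neighbouring groups whose libraries did not overlap.

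Genes of other cell types moved with the lines, and their part in these results was not tested. In SD at E13.5, 12 of 14 macrophage markers fell (2.07% of all genes), with sums of 19.9 to 52.4 CPM in SD and 204.7 to 331 in wild-type. At E12.5 the sums were 86.6 to 206.3 in SD and 117 to 751.8 in wild-type, and overlapped. Endothelial markers fell for 6 of 12 in SD at E13.5 (2.07% of all genes), with sums of 52.4 to 83.8 against 131.6 to 139.4 CPM, and at E12.5 the sums overlapped (49.8 to 97 against 54.8 to 193). Macrophage sums in SO were 555.8 to 843.6 against 816.2 to 845.2 CPM at E12.5 and 485.6 to 1237 against 330.9 to 450.8 at E13.5, where 2 of 14 markers rose (8.53% of all genes). In SO at E13.5, 7 of 10 stromal markers fell (6.83% of all genes) and 2 rose (8.53%), with sums of 10670 to 11460 CPM in SO and 8419 to 12610 in wild-type. At E12.5, 3 of the 10 stromal markers fell in SO (3.00% of all genes), with sums of 9279 to 9655 against 10980 to 11300. Erythroid sums, over 8 of 10 listed markers in the table, were lower without overlap at E12.5 in both lines, 18.9 to 72.8 CPM in SD against 582.4 to 849.4 and 66.6 to 994.9 in SO against 3262 to 3377. At E13.5 they overlapped, 28.4 to 62.6 in SD against 53.2 to 1199 and 83.7 to 588.1 in SO against 50.5 to 4102. Over both stages 1 of the 8 erythroid markers rose (3.46% of all genes) and 4 fell (3.71%) in SD, and 0 rose (10.2%) and 4 fell (8.32%) in SO. Nephron progenitor sums in SO were lower without overlap, 222.3 to 250.6 against 400.4 to 421.7 CPM at E12.5 and 180.3 to 247.4 against 466 to 738.2 at E13.5. Over both stages 2 of the 9 markers rose (10.2% of all genes) and 2 fell (8.32%) in SO. In SD the nephron progenitor sums were higher without overlap, 424.7 to 536.3 against 374.7 to 395.6 at E12.5 and 474.8 to 584 against 402.2 to 424 at E13.5, and 1 of the 9 rose over both stages (3.46% of all genes). A sum leans on the abundant markers. The mean log2 CPM of the 9 markers overlapped wild-type at both stages in both lines, with 3.45 to 3.67 in SO E12.5 against 3.37 to 3.88. Of the liver list, Alb and Ttr were at 0 reads in every SO E12.5 library, Afp and Ttr in every SD E13.5 library and Ttr in every wild-type C57BL/6 E13.5 library. No stromal, macrophage, endothelial or nephron progenitor marker was at 0 reads in every library of a group. In bulk RNA, fewer cells of a type and less RNA per cell cannot be told apart.

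Dchs1, the Dachsous cadherin that binds Fat4 (chromosome 7, 105752990 to 105787654, minus strand), had its only call in the stage comparison of wild-type CD1 cells, and had none against wild-type in either line. Wild-type CD1 cells measured 9.07, 9.05 and 9.03 log2 CPM at E12.5 and 8.60, 8.95 and 8.78 at E13.5. Wild-type C57BL/6 cells measured 8.87, 8.97 and 8.92 at E12.5 and 8.79, 8.61 and 8.59 at E13.5. Within each strain every E13.5 library was below every E12.5 library, and such groups without overlap, in either direction, were found for 24.5% of all genes in C57BL/6 and 24.9% in CD1. The stage change was -0.27 ± 0.08 in CD1 (adjusted p = 0.0412), the only one of the 10 genes to pass there (5.42% of all genes). In C57BL/6 it was -0.26 ± 0.08 (adjusted p = 0.0668), and 0 of 10 passed (3.96% of all genes). For that strain 3 of the 10 had an unadjusted p under 0.05, as did 2724 of all genes. The CD1 call rested on single libraries: it was lost without any one of wild-type E12.5 replicates 1, 2 and 3 or E13.5 replicates 1 and 3 (values from -0.36 to -0.19, adjusted p up to 0.159). It was also lost when only the CD1 libraries entered the fit (adjusted p = 0.0577), with a replicate block (adjusted p = 0.0551) and without the 2 libraries highest in Alb (adjusted p = 0.11). In C57BL/6 the gene passed without E13.5 replicate 1 (-0.32, adjusted p = 0.0372).

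Against wild-type, Dchs1 measured 8.91, 9.03 and 8.99 log2 CPM in SD E12.5 and 8.68, 8.93 and 8.77 in SD E13.5. In SO it measured 9.16, 9.21 and 9.15 at E12.5 and 8.90, 8.73 and 8.82 at E13.5. The SO E12.5 libraries lay just above their wild-type, and in the other 3 comparisons the groups overlapped. The change over both stages was 0.10 in SD (95% interval -0.02 to 0.21) and 0.08 in SO (-0.03 to 0.20), so a change of the size seen for Fat4 in SD lies outside both intervals in either direction.

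Dchs2, the second Dachsous cadherin (chromosome 3, 83127948 to 83357209, plus strand), differed between wild-type C57BL/6 and CD1 cells, where strain goes with the line. Wild-type C57BL/6 libraries held 12, 16 and 14 reads at E12.5 and 5, 18 and 3 at E13.5. Wild-type CD1 libraries held 26, 46 and 31 reads at E12.5 and 39, 27 and 17 at E13.5. On the log2 CPM scale the C57BL/6 values were -1.29 to 1.02 and the CD1 values 1.19 to 2.20, with no overlap. The strain difference over both stages was -1.57 ± 0.33 (2.98-fold lower in C57BL/6; limma adjusted p = 0.00849), the only one of the 10 genes to pass in that comparison (4.46% of all genes), and it held in all 12 fits that left out a library (-1.88 to -1.30). Mutant libraries followed their strain, with 7 to 28 reads in SD and 26 to 52 in SO. At this depth no genotype change was detectable: 0.54 in SD (95% interval -0.14 to 1.21) and 0.32 in SO (-0.35 to 1.00). Ranked by group mean, the 4 CD1 groups stood above the 4 C57BL/6 groups, and the step between them was the only one where neighbouring groups did not overlap. The wild-type cells of the 2 strains also differed in markers of other cell types. In the strain comparison 7 of 14 macrophage markers were lower in C57BL/6 and 0 higher (4.46% of all genes passed in either direction). Of the 12 endothelial and 8 erythroid markers 0 passed. The part of cell makeup in the Dchs2 difference was not tested.

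Fjx1, the kinase that modifies Fat and Dachsous cadherins (chromosome 2, 102449366 to 102452499, minus strand), had no call against wild-type in either line. In C57BL/6 the wild-type libraries measured 5.34, 5.21 and 5.11 log2 CPM at E12.5 and 5.32, 5.29 and 5.26 at E13.5, and SD 5.31, 5.54 and 5.503, then 5.65, 5.38 and 5.62. SD libraries were all above wild-type at E13.5 and overlapped it at E12.5. In CD1 the wild-type libraries measured 5.24, 5.39 and 5.30 at E12.5 and 5.04, 5.27 and 5.07 at E13.5, and SO 4.58, 5.10 and 5.28, then 5.08, 5.11 and 5.22. The SO spread at E12.5 came from replicate 1, the lowest of the 24 libraries for this gene, and without SO E12.5 replicate 3 the E12.5 change was -0.47 (adjusted p = 0.0376), against -0.32 (adjusted p = 0.144) with it. Over both stages the change was 0.24 ± 0.09 in SD (adjusted p = 0.124) and -0.16 ± 0.09 in SO (adjusted p = 0.272). All neighbouring group means overlapped in their libraries, from 5.55 in SD E13.5 to 4.99 in SO E12.5.

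For Fjx1 the SD change minus the SO change was 0.40 ± 0.13 (adjusted p = 0.0364), a call that ended in 14 of 24 fits that left out a library (0.30 to 0.47, adjusted p up to 0.0681). Those libraries were SD E12.5 replicates 2 and 3, SD E13.5 replicates 1 and 3, SO E12.5 replicate 1, SO E13.5 replicates 1 and 2, wild-type C57BL/6 replicates 2 and 3 of both stages, wild-type CD1 E12.5 replicates 2 and 3 and wild-type CD1 E13.5 replicate 2. The call also ended without the 2 libraries highest in Alb (0.386, adjusted p = 0.0692).

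Yap1, which encodes the coactivator YAP (chromosome 9, 7931999 to 8004596, minus strand), was the steadiest of the 10 genes. Its 24 values lay between 8.28 and 8.66 log2 CPM, and libraries of all neighbouring groups overlapped when the groups were ranked by mean. The change over both stages was 0.04 in SD (95% interval -0.08 to 0.15) and -0.01 in SO (-0.12 to 0.10). These intervals leave room for changes of up to about 0.15 in either line. The lowest value, 8.28, was that of wild-type CD1 E13.5 replicate 1.

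Wwtr1, which encodes TAZ and carries both cores in its promoter sequence above (chromosome 3, 57455649 to 57575910, minus strand), rose in SO. Wild-type CD1 libraries measured 6.95, 6.89 and 6.88 log2 CPM at E12.5 and 6.65, 7.14 and 7.11 at E13.5. SO libraries measured 7.26, 7.34 and 7.30 at E12.5 and 7.39, 7.30 and 7.40 at E13.5. At both stages the groups did not overlap, and the 2 SO groups ranked above the other 6 groups with no shared range. The change was 0.39 ± 0.11 at E12.5 (adjusted p = 0.0301), 0.40 ± 0.11 at E13.5 (adjusted p = 0.0166) and 0.40 ± 0.08 over both stages (1.32-fold; limma adjusted p = 0.000796). The value over both stages held in all 12 fits that left out a library (0.32 to 0.44). The E12.5 call was lost in all 6 such fits (adjusted p 0.059 to 0.1, values 0.38 to 0.42) and with median-of-ratios scaling (adjusted p = 0.0554), and the E13.5 call without SO replicate 1, SO replicate 3 or wild-type replicate 1 (0.24 to 0.48, adjusted p up to 0.116).

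In C57BL/6, Wwtr1 measured 6.62, 6.70 and 6.98 in wild-type E12.5, 6.64, 7.02 and 7.08 in SD E12.5, 6.998, 6.97 and 7.04 in wild-type E13.5 and 6.94, 6.97 and 7.003 in SD E13.5. SD and wild-type overlapped at both stages, and the change over both was 0.06 (95% interval -0.11 to 0.22). The SD change minus the SO change was -0.34 ± 0.11 (adjusted p = 0.0384). That call ended in 13 of 24 fits that left out a library (-0.38 to -0.26, adjusted p up to 0.0729), namely SD E12.5 replicate 1, SD E13.5 replicates 1 and 2, SO E12.5 replicates 2 and 3, SO E13.5 replicates 1 and 3, wild-type C57BL/6 E12.5 replicate 3 and E13.5 replicates 1 and 3, and wild-type CD1 E12.5 replicates 2 and 3 and E13.5 replicate 1.

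Tead1, a DNA-binding partner of YAP and TAZ (chromosome 7, 112679318 to 112906807, plus strand), showed the same direction in SO with a larger change. Wild-type CD1 libraries measured 7.47, 7.58 and 7.61 log2 CPM at E12.5 and 7.26, 7.79 and 7.71 at E13.5. SO libraries measured 8.08, 8.17 and 8.14 at E12.5 and 8.11, 8.03 and 7.96 at E13.5. All 6 SO libraries were above all 18 other libraries. The change was 0.58 ± 0.10 at E12.5 (adjusted p = 0.000835), 0.45 ± 0.10 at E13.5 (adjusted p = 0.00461) and 0.51 ± 0.07 over both stages (1.43-fold; limma adjusted p = 1.81e-05). Every fit that left out a library kept these calls, and without wild-type CD1 E13.5 replicate 1 the E13.5 change was 0.28 (adjusted p = 0.0321), against 0.45 with it.

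In SD, Tead1 measured 7.31, 7.52 and 7.49 at E12.5, all below the wild-type 7.60, 7.75 and 7.56, and 7.65, 7.70 and 7.55 at E13.5, overlapping the wild-type 7.85, 7.59 and 7.50. The change over both stages was -0.11 (95% interval -0.26 to 0.05; adjusted p = 0.474). The SD change minus the SO change was -0.62 ± 0.10 (adjusted p = 0.000158) and kept its call in all 24 fits that left out a library.

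Ctgf, a secreted matricellular protein and widely used YAP and TAZ target (chromosome 10, 24595442 to 24598683, plus strand), rose in both lines, and had the largest change of the 10 genes. In CD1 wild-type cells it measured 4.48, 4.55 and 4.36 log2 CPM at E12.5 and 3.46, 3.99 and 3.60 at E13.5. In SO it measured 4.53, 4.52 and 5.03 at E12.5 and 5.54, 5.98 and 5.58 at E13.5. The groups overlapped at E12.5 (4.55 in wild-type, 4.52 in SO) and lay far apart at E13.5, with the lowest SO value at 5.54 and the highest wild-type value at 3.99. The change was 0.23 ± 0.25 at E12.5 (adjusted p = 0.677) and 2.01 ± 0.25 at E13.5 (4.04-fold; limma adjusted p = 3.64e-06). The E13.5 change was 1.90 without wild-type replicate 1 (adjusted p = 3.19e-05), and all 6 fits that left out a library kept the call. Over both stages it was 1.12 ± 0.18 (2.17-fold; adjusted p = 5.94e-05).

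The difference between the 2 SO stage effects of Ctgf, tested as an interaction, was 1.78 ± 0.36 (adjusted p = 0.0138), and Ctgf was the only one of the 10 genes to pass in that comparison (1.33% of all genes). All 12 fits that left out a library kept it (1.64 to 1.95). Part of this difference lay in the wild-type, which measured -0.78 ± 0.25 at E13.5 relative to E12.5 (adjusted p = 0.0724, and 0.0216 when only the CD1 libraries entered the fit), and part in SO, whose mean was 4.69 at E12.5 and 5.70 at E13.5. In C57BL/6 wild-type cells the stage change was 0.08 (95% interval -0.44 to 0.61). The stage change of one strain minus the other did not pass for Ctgf or any other of the 10 genes (0 of 10, against 0.0145% of all genes). There 1 of the 10, Ctgf, had an unadjusted p under 0.05, as did 712 of all genes.

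In C57BL/6, Ctgf measured 3.48, 3.87 and 3.78 in wild-type E12.5 and 3.78, 3.75 and 3.85 in wild-type E13.5, against 4.66, 3.92 and 4.31 in SD E12.5 and 4.11, 4.25 and 5.42 in SD E13.5. Every SD library was above every wild-type C57BL/6 library. SD E13.5 replicate 3 stood highest, more than 1 log2 unit above the other two. The change over both stages was 0.69 ± 0.18 (1.62-fold; limma adjusted p = 0.0173). It was 0.49 (adjusted p = 0.0435) without SD E13.5 replicate 3, and all 12 fits that left out a library kept the call, but it ended when only the C57BL/6 libraries entered the fit (adjusted p = 0.0542). At single stages the changes were 0.58 ± 0.25 (adjusted p = 0.288) and 0.80 ± 0.25 (adjusted p = 0.0868). The E13.5 change was 0.39 (adjusted p = 0.462) without SD replicate 3 and 1.04 (adjusted p = 0.0439) without SD replicate 1. The SD change minus the SO change over both stages was -0.43 (95% interval -0.95 to 0.10; adjusted p = 0.274), and -0.64 (adjusted p = 0.026) without SD E13.5 replicate 3.

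Cyr61, a secreted relative of Ctgf that is also induced rapidly by serum and stress (chromosome 3, 145646976 to 145649981, minus strand), passed in no comparison and depended on few libraries. Wild-type C57BL/6 libraries measured 5.66, 5.72 and 5.70 log2 CPM at E12.5 and 5.88, 5.95 and 5.65 at E13.5. SD libraries measured 5.85, 5.78 and 6.62 at E12.5 and 6.42, 5.84 and 7.66 at E13.5. Replicate 3 was the highest SD library at each stage. The SD change over both stages was 0.60 ± 0.20 (adjusted p = 0.0706). It was 0.35 (adjusted p = 0.168) without SD E13.5 replicate 3 and 0.80 (adjusted p = 0.00501) without SD E13.5 replicate 2. At E13.5 alone it was 0.81 (adjusted p = 0.128), 0.30 (adjusted p = 0.604) without replicate 3 and 1.21 (adjusted p = 0.00939) without replicate 2.

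In CD1 cells Cyr61 measured 5.79, 5.85 and 6.25 in wild-type E12.5 and 5.96, 5.68 and 6.06 in SO E12.5, where the groups overlapped. At E13.5 it measured 5.39, 5.82 and 5.59 in wild-type and 6.33, 6.25 and 6.13 in SO, where they did not. The E13.5 change was 0.63 ± 0.28 (adjusted p = 0.139), and it passed when only the CD1 libraries entered the fit (adjusted p = 0.00666).

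The summed level of 10 immediate early genes was high in the SD libraries with the highest Cyr61. It was 235.9, 212.6 and 441.6 CPM in SD E12.5 and 320.9, 225.1 and 584.8 CPM in SD E13.5, so replicate 3, the highest SD library for Cyr61 at each stage, also had the highest sum. For Ctgf this held at E13.5 only, since at E12.5 its highest SD value was that of replicate 1. Wild-type C57BL/6 libraries held 196 to 215.1 CPM at E12.5 and 235.8 to 314.8 at E13.5. Over both stages 3 of the 10 immediate early genes rose in SD, Fos, Egr1 and Btg2 (3.46% of all genes). In SO the sums were 335.4 to 354.6 CPM at E12.5 and 361.9 to 467.2 at E13.5, all above the wild-type CD1 sums of 233.1 to 283.2 and 200 to 261.4. The mean log2 CPM of the same 10 genes overlapped at both stages. It was 2.94 to 3.85 in SO against 3.53 to 4.01 in wild-type at E12.5, and 3.77 to 4.28 against 3.01 to 3.84 at E13.5. Their median change was -0.19 at E12.5 and 0.68 at E13.5. In SO, over both stages, 1 of the 10 genes rose, Jun (10.2% of all genes), and 1 fell, Btg2 (8.32%). Fos and Egr1 were also among the 3 genes most like Cyr61 over the 24 libraries (Pearson r = 0.827 and 0.791). The part of this in the changes of Ctgf and Cyr61 was not tested.

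**Figure D3:**
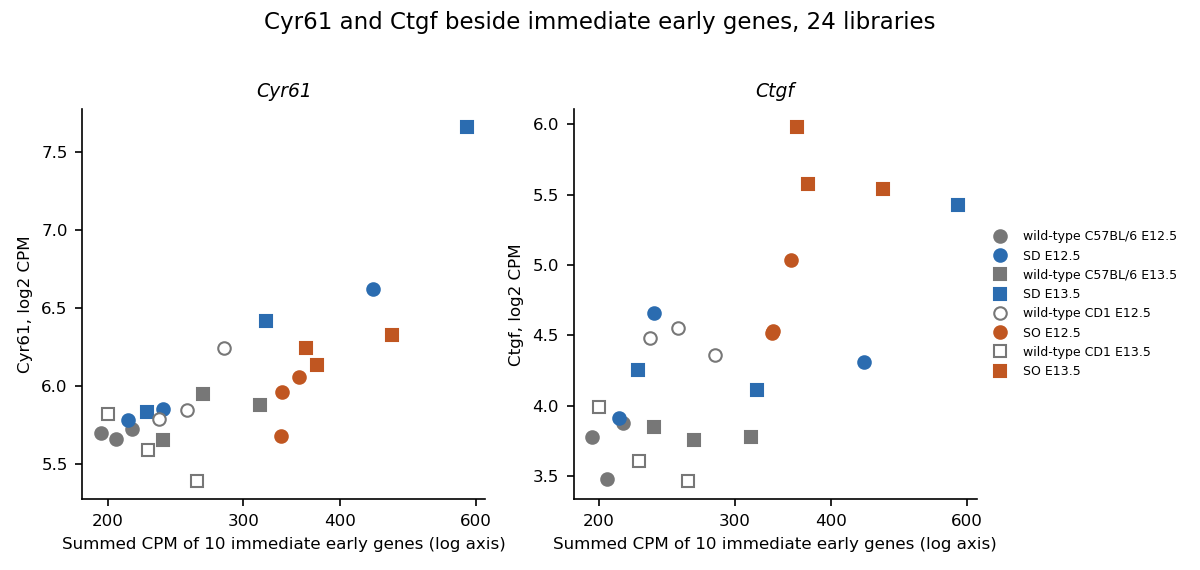
Each point is 1 of 24 libraries, with the summed CPM of 10 immediate early genes on a log x axis and Cyr61 (left) or Ctgf (right) in log2 CPM on the y axis; circles are E12.5, squares E13.5, blue SD, orange SO, filled grey wild-type C57BL/6 and open grey wild-type CD1. SD E13.5 replicate 3 lies at the far right with 584.8 CPM and the highest Cyr61 value, 7.66, while the 3 SO E13.5 libraries have higher Ctgf values (5.54 to 5.98) than it (5.42) at sums of 361.9 to 467.2 CPM.

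Axl, a receptor tyrosine kinase reported as a YAP target (chromosome 7, 25757273 to 25788705, minus strand), fell in SO. Wild-type CD1 libraries measured 8.12, 8.10 and 8.09 log2 CPM at E12.5 and 8.04, 8.31 and 8.59 at E13.5. SO libraries measured 7.82, 7.71 and 7.71 at E12.5, all below wild-type, and 8.13, 7.87 and 7.92 at E13.5, where replicate 1 overlapped the lowest wild-type library. The change was -0.36 ± 0.13 at E12.5 (adjusted p = 0.0961), -0.34 ± 0.13 at E13.5 (adjusted p = 0.0776) and -0.35 ± 0.09 over both stages (1.28-fold lower; limma adjusted p = 0.008). The last call held in all 12 fits that left out a library (-0.42 to -0.28). At E13.5 the gene passed without wild-type replicate 1 (-0.48, adjusted p = 0.0135).

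In C57BL/6, Axl measured 7.86, 7.83 and 8.08 in wild-type E12.5 and 8.01, 8.26 and 8.69 in SD E12.5, which overlapped. At E13.5 it measured 8.38, 8.35 and 8.35 in wild-type and 8.45, 8.42 and 8.65 in SD, which did not. The SD change over both stages was 0.27 ± 0.09 (adjusted p = 0.079). Without the 2 libraries highest in Alb it was 0.31 (adjusted p = 0.0337). It was 0.35 (adjusted p = 0.0116) without SD E12.5 replicate 1, and at E12.5 alone leaving that library out moved it from 0.40 (adjusted p = 0.13) to 0.55 (adjusted p = 0.017). Without SD E12.5 replicate 3, the E12.5 library with the highest immediate early sum, the change was 0.21 at E12.5 (adjusted p = 0.588) and 0.18 over both stages (adjusted p = 0.235). The SD change minus the SO change was 0.62 ± 0.13 (adjusted p = 0.00139) and held in all 24 fits that left out a library (0.53 to 0.70). Axl also differed between stages in wild-type C57BL/6 cells, by 0.43 ± 0.13 with no overlap but an adjusted p of 0.0607, and it passed without E12.5 replicate 3, which was high in Alb (0.51, adjusted p = 0.0419). By group mean, SD E13.5 was highest (8.51) and SO E12.5 lowest (7.74), and both ends were separated from their neighbours.

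Set side by side, the difference between the SD and SO changes passed for 5 of the 10 genes, against 17.9% of all genes. Fat4, Tead1 and Wwtr1 had the lower change in SD (9.87% of all genes), and Axl and Fjx1 the higher (8.05%). The targets did not share a direction: Ctgf rose in both lines, Axl fell in SO with 0.27 in SD, and Cyr61 passed in neither. The SD change itself differed between stages for 0 of the 10 genes and 0 of all 13803, where 0 of the 10 and 753 of all genes had an unadjusted p under 0.05.

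The other genes of the pathway were taken from 4 lists. The kinase core and its scaffolds had 23 of 23 genes in the table, and over both stages 2 rose and 1 fell in SD while 3 rose and 5 fell in SO (7.17% and 18.5% of all genes passed). In SD these were Amot and Amotl1 higher and Taok3 lower, and in SO Frmd6, Map4k4 and Stk3 higher and Amot, Amotl1, Ptpn14, Wtip and Wwc2 lower, of which Stk3, Wtip and Wwc2 are named after their values were seen. Amot and Amotl1 encode angiomotins, junctional scaffolds that hold YAP and TAZ in the cytoplasm and promote their phosphorylation. Amot measured 8.73, 8.99 and 8.96 log2 CPM in SD E12.5 and 8.92, 8.93 and 8.82 in SD E13.5, all above the wild-type 8.42, 8.37 and 8.30, then 8.37, 8.10 and 8.25. It rose by 0.53 ± 0.11 at E12.5 (adjusted p = 0.0107) and 0.65 ± 0.11 at E13.5 (adjusted p = 0.00111), and the E12.5 call ended without SD replicate 2 (0.48, adjusted p = 0.0535) or 3 (0.50, adjusted p = 0.0677). Amotl1 rose in SD at E13.5 by 0.43 ± 0.08 (adjusted p = 0.00342).

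In SO the angiomotin genes went the other way at E13.5. Amot measured 7.81, 7.60 and 7.42 log2 CPM there against 7.95, 8.47 and 8.24 in wild-type, a change of -0.61 ± 0.11 (adjusted p = 0.000314). Amotl1 measured 7.81, 7.50 and 7.63 against 8.01, 8.20 and 8.24, a change of -0.51 ± 0.08 (adjusted p = 9.13e-05). Neither SO group overlapped its wild-type. Over both stages the SD change minus the SO change was 0.91 ± 0.11 for Amot (adjusted p = 1.87e-06) and 0.64 ± 0.08 for Amotl1 (adjusted p = 3.97e-06).

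Frmd6, an upstream scaffold of the kinase cascade, rose in SO. It measured 6.77, 7 and 7.26 log2 CPM in SO E12.5 against 5.88, 5.90 and 6.21 in wild-type, and 6.68, 6.54 and 6.66 in SO E13.5 against 5.49, 6.04 and 5.94. The groups did not overlap, and the change was 1.01 ± 0.13 at E12.5 (adjusted p = 1.38e-05) and 0.80 ± 0.13 at E13.5 (adjusted p = 9.46e-05). Of the central kinases, Lats1 had 0.02 in SD (adjusted p = 0.931) and 0.02 in SO (adjusted p = 0.921). Lats2 had 0.09 (adjusted p = 0.675) and 0.14 (adjusted p = 0.372), and both were named after their values were seen. Stk3, another of these kinases, rose in SO over both stages, as listed above. The median change of the list was 0.02 in SD and -0.01 in SO. Of the nuclear partners, 5 of 7 listed genes were in the table, Tead2, Tead3, Tead4, Vgll3 and Vgll4. With limma 0 of the 5 passed in any of the 13 comparisons, where 0 to 18.5% of all genes passed. At an unadjusted p under 0.05 stood Tead3 and Tead4 in SD at E12.5 (1917 of all 13803 genes), Tead4 in SD over both stages (2757) and Tead2 between wild-type C57BL/6 stages (2724). Of the 5 genes, Tead4 had the largest change in SD over both stages, -0.57 (adjusted p = 0.0827).

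Among Fat cadherins and planar polarity genes, 10 of 11 were in the table, with 1 higher and 0 lower in SD over both stages (Fat3) and 3 higher (Fat1, Fat3 and Prickle1) and 1 lower (Prickle2) in SO (7.17% and 18.5% of all genes passed in either direction). Fat1, another large Fat cadherin, rose in SO and not in SD. It measured 9.89, 9.91 and 9.95 log2 CPM in SO E12.5 and 9.92, 9.71 and 9.84 in SO E13.5, and every other library lay between 8.01 and 8.71. The change was 1.40 ± 0.12 at E12.5 (2.64-fold; adjusted p = 3.79e-08) and 1.36 ± 0.12 at E13.5 (2.56-fold; adjusted p = 2.48e-08). In SD it was -0.20 ± 0.09 over both stages (adjusted p = 0.167), and the SD change minus the SO change was -1.58 ± 0.12 (adjusted p = 1.68e-09). Fat1 was also among the 3 genes most like Tead1 over the 24 libraries (Pearson r = 0.907).

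Fat3, another large cadherin of the Fat family, rose in both lines over both stages, but in SO it did not pass at E13.5 alone. It measured 4.78, 5.96 and 6.28 log2 CPM in SD E12.5 against 3.96, 4.25 and 4.10 in wild-type, and 5.94, 6.28 and 6.17 in SD E13.5 against 4.89, 4.37 and 4.52. The SD change was 1.57 ± 0.23 at E12.5 (2.97-fold; adjusted p = 0.00055) and 1.54 ± 0.23 at E13.5 (2.9-fold; adjusted p = 0.000495), where Fat4 had -0.37 and -0.51. In SO the E12.5 libraries measured 4.96, 5.12 and 5.42 against 4.02, 4.02 and 3.94, a change of 1.17 ± 0.23 (adjusted p = 0.00202). At E13.5 the group means were 5.32 in SO and 4.89 in wild-type CD1, where the wild-type mean had been 3.99 at E12.5. Side by side over both stages, in SD Fat3 rose and Fat4 fell while Fat1 did not pass, and in SO Fat1 and Fat3 rose while Fat4 did not pass. Prickle1, a core planar polarity gene, rose in SO at E13.5 by 0.88 ± 0.13 (adjusted p = 4.47e-05) and fell in SD at E13.5 by 0.55 ± 0.13 (adjusted p = 0.0207). That call in SD was lost on leaving out replicate 1 or 2 of either group (-0.52 to -0.48, adjusted p up to 0.0965). It was also lost with voom weights (adjusted p = 0.0732), with median-of-ratios scaling (adjusted p = 0.0698) and with only the C57BL/6 libraries (adjusted p = 0.0674). Over both stages the SD value of Prickle1 was -0.21 (adjusted p = 0.215).

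**Figure D4:**
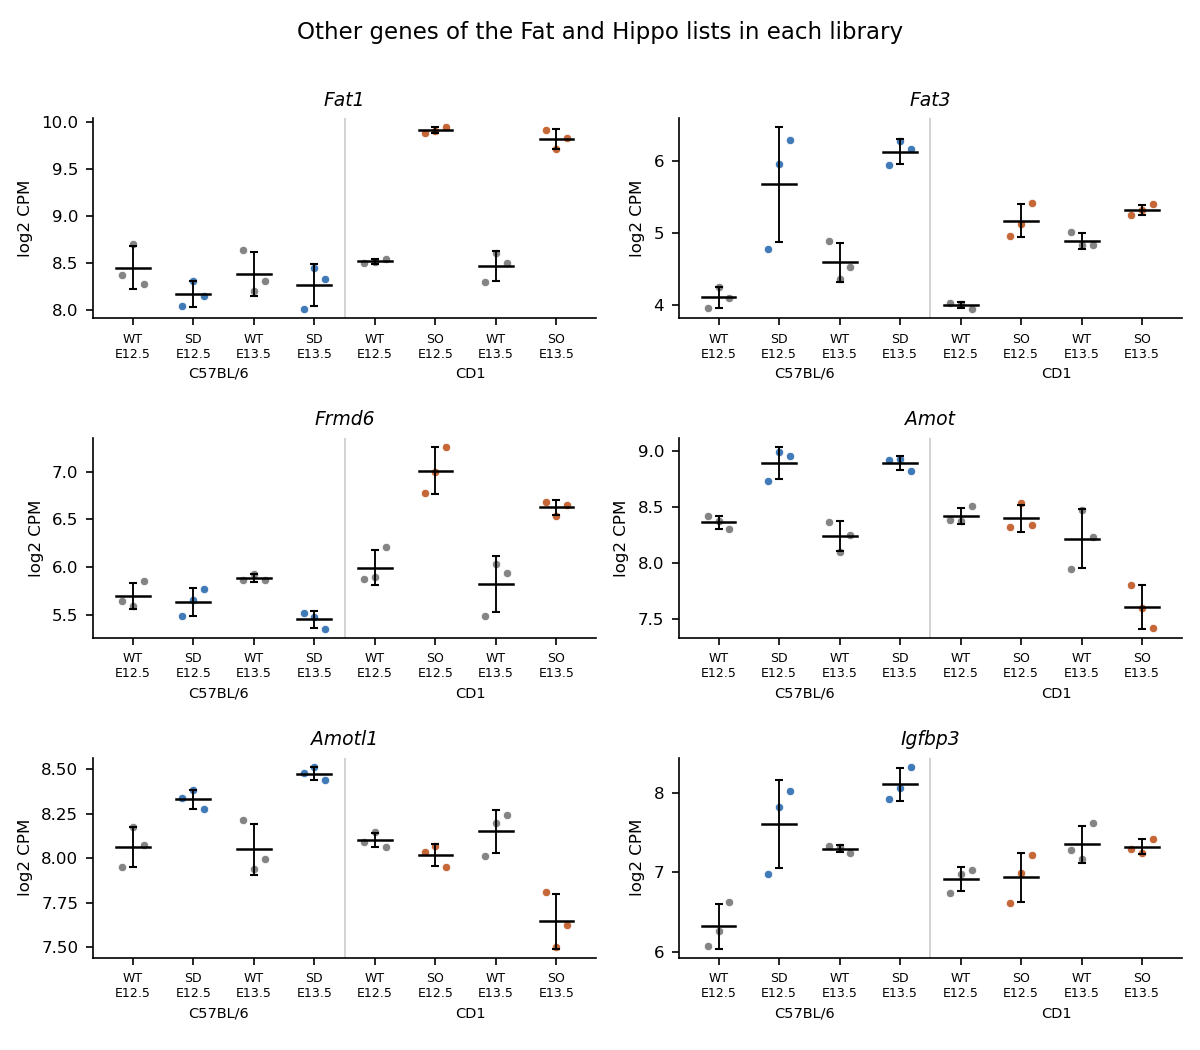
Each panel shows 1 gene of the pathway lists in log2 CPM, drawn as in the plot of the 10 genes: points are libraries, long bars group means and whiskers 1 SD, with grey wild-type, blue SD and orange SO. Fat1 and Frmd6 stand high in SO, Fat3 and Igfbp3 stand high in SD, and Amot and Amotl1 stand high in SD and low in SO E13.5.

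A list of other genes described as YAP and TAZ targets had 17 of 18 genes in the table. Over both stages 3 rose and 0 fell in SD, and 3 rose and 3 fell in SO, with list medians of 0.21 and 0.00. Of all genes, 3.46% rose and 3.71% fell in SD, and 10.2% rose and 8.32% fell in SO. In SD these were Igfbp3, Ccdc80 and Nuak2, the last named after its values were seen, and in SO Myof, Foxf2 and Ccdc80 higher and Gadd45a, Dock5 and Ptpn14 lower. Igfbp3, a secreted binding protein for insulin-like growth factors, measured 6.97, 7.83 and 8.02 log2 CPM in SD E12.5 against 6.08, 6.26 and 6.63 in wild-type, and 7.93, 8.06 and 8.33 in SD E13.5 against 7.33, 7.31 and 7.25. It rose by 1.29 ± 0.20 at E12.5 (2.44-fold; adjusted p = 0.000597) and 0.81 ± 0.20 at E13.5 (adjusted p = 0.0205), and the E13.5 call ended without SD replicate 3 (0.70, adjusted p = 0.115) or any wild-type E13.5 library (adjusted p 0.0505 to 0.0819). In SO its value over both stages was -0.005 (adjusted p = 0.989). The difference between the SD and SO changes was 1.05 ± 0.20 (adjusted p = 0.000449).

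Ccdc80, a secreted matrix protein, rose in both lines, by 0.54 ± 0.10 at E12.5 (adjusted p = 0.0035) in SD and by 0.50 ± 0.10 at E12.5 (adjusted p = 0.00156) and 0.92 ± 0.10 at E13.5 (adjusted p = 3.61e-07) in SO. In SD at E13.5 it rose by 0.46 ± 0.10 (adjusted p = 0.00736), a call that ended without SD replicate 3 (0.34, adjusted p = 0.0671) or wild-type replicate 3 (0.41, adjusted p = 0.052). The list held targets of both directions in SO. Myof, a membrane repair protein, rose at E13.5 by 0.88 ± 0.20 (adjusted p = 0.00326), whereas Gadd45a, a stress-response gene, fell at E12.5 by 1.04 ± 0.24 (adjusted p = 0.00816) and Dock5, a Rac exchange factor, fell at E13.5 by 1.02 ± 0.24 (adjusted p = 0.0054). For Dock5, wild-type CD1 E13.5 replicate 1, the library high in endothelial markers, stood at 5.53 log2 CPM against 4.51 and 4.585 in the other wild-type libraries of that stage. Foxf2, a forkhead factor, had 27, 46 and 7 reads in SO E13.5 and 0 reads in each wild-type CD1 E13.5 library, where a count of 0 allows up to 3 reads. At E12.5 Foxf2 had 37, 83 and 61 reads in SO and 19, 16 and 18 in wild-type CD1.

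The genes whose levels most resembled each member were found by Pearson's r of log2 CPM over the 24 libraries among 12683 genes with a mean above 0, and are given as a description, since libraries share groups, strain and cell makeup. Tead1 was followed by Slc4a4 (r = 0.919), Lpin2 (0.912) and Fat1. Dchs1 was closest to Tnrc18 (0.964), then Tcaf1 (0.897) and Aff2 (0.889). Ctgf was closest to Myl9 (0.888), a smooth muscle myosin light chain, then Cnn2 (0.881) and Ckap4 (0.876). Axl was closest to Slc8a1 (0.929), Tm4sf1 (0.927) and Loxl4 (0.926), and Wwtr1 to Col12a1 (0.884), Itm2a (0.883) and Tenm2 (0.871). Fat4 came closest to Cask (0.872), Slc38a2 (0.871) and Pak7 (0.859), and Yap1 to Ube3a (0.859), Fam168b (0.834) and Vangl2 (0.821), a planar polarity gene. Cyr61 had Lasp1 (0.809) between Fos and Egr1. The weakest likeness was that of Dchs2, to Ttyh3 (0.809), Sipa1l2 (0.8) and Gcnt1 (0.799), and of Fjx1, to Ufc1 (0.79), Ephb2 (0.776) and Chst8 (0.768).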

How the data were processed

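The authors deposited 1 table of log2 values for 13803 genes and 24 libraries, and all 24 value columns matched a label (0 left unmapped). HISAT2, HTSeq, limma and the mm10 genome are named in the submitters' processing notes, without versions, and whether counting used strand is not given in the sources used here. Reads of Ctgf, Dchs1, Dchs2, Fat4, Tead1, Wwtr1 and Yap1 can therefore not be told apart from those of annotated antisense neighbours, and no member has a near-identical transcript (95% identity over 200 nucleotides by BLAST 2.17.0). The deposited log2 CPM are on limma's voom scale with TMM scaling and 0.5 added to each count: undoing that gave whole reads for 100% of values within 0.1, and reads and depth in the text come from it. The deposited unit is log2, and the planned count models were not run, although whole reads could be recovered. The recovered reads were used for the alternatives with voom weights and median-of-ratios scaling.

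Tests used limma 3.58.1 in R 4.3.3 with a mean-variance trend, 8 group means, all 24 libraries (16 residual degrees of freedom plus 6.43 prior), 13 comparisons, 2-sided p-values and Benjamini-Hochberg adjustment over 13803 genes, with no minimum fold. The fit was tested on simulated data. Marker sums add CPM over a list. Fold changes are on the log2(count + 0.5) scale and understate those of low genes such as Dchs2. Named list genes are the genes called at a stage with groups that do not overlap, at most 4 per list and comparison, and a gene of interest outside that rule is said to be chosen after its values were seen. The genes and lists were chosen with earlier results of these data known. Positions are from GENCODE M21, promoters from RefSeq (GRCm38.p6). Figures were drawn with matplotlib 3.10.9. The alternatives tried are other scaling, weights, filters and pseudocounts, a replicate block, the libraries of 1 line only, leaving out each library, and, chosen after seeing the data, median-of-ratios scaling and leaving out the 2 libraries highest in Alb.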

Additional observations from a re-analysis of the deposited data

Results flagged for a closer look

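The SO effect on Ctgf differed between stages, which was tested as an interaction: the SO change was 2.01 at E13.5 and 0.23 at E12.5, a difference of 1.78 ± 0.36 on the log2 scale (limma adjusted p = 0.0138, over 13803 genes). All 3 SO E13.5 libraries (5.54, 5.98 and 5.58 log2 CPM) were above all 3 wild-type libraries of that stage (3.46, 3.99 and 3.60), whereas at E12.5 the groups overlapped.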

How the results depend on the processing

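Among the 10 genes, 19 called values were recomputed under 379 alternatives: 327 kept direction and call, 52 lost the call and 0 changed sign. For 60 uncalled values and 959 alternatives, 29 changed sign, none with a call in the opposite direction, and 25 crossed the threshold. The cause of these moves was not tested. With voom weights the genes passing in SD at E13.5 were 193 (120 higher, 73 lower) and with median-of-ratios scaling 195 (122 and 73), against 469 (183 and 286); in SD over both stages they were 643 and 641 against 990, and for the stage change between strains 1 and 1 against 2. Median-of-ratios scaling left 1 of the 10 genes in SO at E12.5. Fat4 in SO over both stages passed with voom weights (0.33, adjusted p = 0.0486) and with median-of-ratios scaling (0.33, adjusted p = 0.049). With the libraries of the line only, 1 of the 10 passed in SD at E13.5 and 1 over both stages, 5 passed in SO at E13.5, and 262 genes for stage in C57BL/6. Without the 2 libraries highest in Alb, Yap1 was -0.028 in SD at E12.5, 0.013 in SO at E13.5, 0.027 in SO over both stages and -0.019 for SD minus SO, Dchs2 -0.010 and Fjx1 -0.020 in SO at E13.5. The stage comparisons then had 1 (C57BL/6) and 0 (CD1) of the 10, and genes passing were 22 for the SD stage difference, 112 for the SO one, 367 for stage in CD1, 1062 for strain and 8 for the stage change between strains.

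Replicate numbers were not used as pairs in the main fit. Over 36 same-numbered pairs of a line the correlation of deviations was -0.365 to 0.276, 8 were over 0.1 and 17 were best with their own number. Every SD E12.5 library was best with its own number in SD E13.5 (0.092 to 0.149) and in wild-type C57BL/6 E12.5 (0.072 to 0.276). Some sharing between libraries of the same number is therefore possible in that line. With the replicate block 1 of the 10 passed for stage in C57BL/6 (Axl, adjusted p = 0.0392) and 0 in CD1, and Cyr61 passed in SD over both stages (adjusted p = 0.0495).

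Leaving out 1 library at a time gave these ranges. In SD, 0 to 1 of the 10 genes passed at E12.5, 0 to 2 at E13.5 and 1 to 3 over both stages. The count was 1 to 2 for SO at E12.5, 3 to 5 for SD minus SO, and 0 to 1 for stage in either strain. Of all genes, 92 to 395 passed for SD at E12.5 and 244 to 370 at E13.5, 720 to 883 for SO at E12.5, 0 to 23 for the SD stage difference, 61 to 532 for the SO one, 83 to 605 for stage in C57BL/6, 290 to 785 in CD1, 233 to 1007 for strain and 2 to 5 for its stage change. Values that changed sign were Yap1 in SD at E12.5 (-0.028 to 0.054), Tead1 in SD at E13.5 (-0.087 to 0.085), Cyr61 in SO at E12.5 (-0.149 to 0.078), Yap1 in SO over both stages (-0.059 to 0.027), and for SD minus SO Dchs1 (-0.029 to 0.058) and Dchs2 (-0.056 to 0.521). In SO at E13.5 they were Fat4 (-0.04 to 0.405), Dchs1 (-0.044 to 0.132), Dchs2 (-0.078 to 0.409), Fjx1 (-0.035 to 0.081) and Yap1 (-0.16 to 0.013). The 3 planned count models were not run. Depth limits Dchs2, at 3 to 52 reads.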
